A study of Mus musculus with 2 samples.

Results

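The adrenal gland of 10-day-old male B6CASTF1/J mice gave 733 spliced transcript structures that, by their label, join annotated splice sites in a way no annotated transcript does and that both libraries of the series held at 5 or more reads. Each structure is an intron chain, the ordered set of all introns of 1 long read model. The chains were chosen by their class and their measured reads: models of the class NIC (the label that TALON, which sorts long-read models, gives to unannotated combinations of known sites) in annotated genes, matched between the libraries by chromosome, strand and all introns. They lay in 592 genes, 727 of the 733 in protein-coding genes, and were 733 of 31654 NIC chains of annotated genes seen in either library and of 143637 multi-exon chains of all classes. Because the reads chose the members, their levels are described without a test; the only test is of whether a chain's share of its gene differed between the libraries.

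The study measured RNA of 1 group by long-read RNA sequencing, in which 1 read can span a whole spliced transcript. Its 2 biological replicates are adrenal glands of male B6CASTF1/J mice, a first-generation hybrid of the inbred strains C57BL/6J and CAST/EiJ; no treatment is named, and the labels give spike-in RNAs of Lexogen and Ambion for both. The labels list 1 donor for both samples and give 2 different animal numbers for replicate 2. It is therefore not known if the libraries are of separate animals, and the tests below measure only the spread between these 2 samples, which may be technical. Replicate 1 held 927914 reads on annotated genes and replicate 2 held 1303420, of which 867330 and 1117054 were on multi-exon models; the labels give an RNA input of 1 µg for replicate 2 alone.

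The libraries carried markers of the gland's cortex and medulla and of other tissues. The 7 cortex markers summed to 30930 counts per 1000000 reads on annotated genes (CPM) in replicate 1 and 19866 CPM in replicate 2, and the 6 medulla markers to 11421 and 6064 CPM. The 4 liver markers summed to 8371 and 24027 CPM, the 2 brown fat markers to 5931 and 5532 CPM and the 2 red blood cell markers to 1005 and 3696 CPM. The sums hide markers that went different ways. In the medulla Pnmt stood at 639 and 707 CPM, while all other medulla markers were lower in replicate 2. In brown fat Ucp1 stood at 4451 and 2927 CPM and Cidea at 1480 and 2605 CPM. Of the 3 kidney markers, Umod and Slc12a1 were at 0 reads in both libraries.

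Most mammalian genes make more than 1 mRNA, because exons can be skipped or included, introns kept, and the donor site at the start of an intron or the acceptor site at its end moved. Transcript catalogues list the combinations that were seen before; reads that span whole transcripts show which known sites are used together on the same molecule. Very short exons, called microexons, and pairs of acceptor sites a few bases apart, called tandem acceptors, are well-known sources of small differences between transcripts of a gene.

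Several of the chains with most reads differed from annotated transcripts by 1 to 16 bases, while others differed by whole exons or introns. The sequences of small differences are shown first because the difference can be read in them. The bases are those of the GENCODE M21 transcripts (build mm10), 5′ to 3′ on the strand of the gene, with 25 bases on each side. Itih3, Idh3g, Hnrnpk, Ctbp1, H2afy and Cars2 lie on the minus strand and the other genes shown on the plus strand. In the genes of the antizymes Oaz1 and Oaz2, which hold back polyamine levels, the annotated transcripts leave out 1 base, marked in capitals, and the chain keeps it. Antizyme mRNAs are the textbook case of a ribosome that shifts reading frame at a stop codon, and the capital base is the first of a tga.
Oaz1, chain, base at chr10:80828295-80828295: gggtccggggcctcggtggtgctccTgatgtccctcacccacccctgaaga
Oaz2, chain, base at chr9:65686272-65686272: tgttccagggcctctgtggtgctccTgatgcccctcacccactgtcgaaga

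In the next genes the closest annotated transcript holds a microexon, in capitals, that the chain lacks. Phb2 encodes a prohibitin of the inner mitochondrial membrane, Mpc1 a subunit of the mitochondrial pyruvate carrier, Sept7 a septin of the cytoskeleton, Itih3 a plasma protein made mainly by liver, Idh3g a subunit of a citric acid cycle dehydrogenase, Immt the organiser of mitochondrial cristae and Atp6v0a1 a subunit of the proton pump of vesicles.
Phb2, annotated, 6 bases at chr6:124716425-124716430: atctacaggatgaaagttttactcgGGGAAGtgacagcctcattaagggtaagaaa
Mpc1, annotated, 4 bases at chr17:8296527-8296530: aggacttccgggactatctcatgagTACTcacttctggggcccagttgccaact
Sept7, annotated, 5 bases at chr9:25265302-25265306: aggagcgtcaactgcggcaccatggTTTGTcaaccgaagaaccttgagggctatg
Itih3, annotated, 3 bases at chr14:30914049-30914051: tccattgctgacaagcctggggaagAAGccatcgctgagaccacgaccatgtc
Idh3g, annotated, 12 bases at chrX:73782298-73782309: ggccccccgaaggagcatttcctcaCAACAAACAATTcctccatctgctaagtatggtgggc
Immt, annotated, 15 bases at chr6:71866726-71866740: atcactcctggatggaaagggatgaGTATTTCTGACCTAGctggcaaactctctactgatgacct
Atp6v0a1, annotated, 18 bases at chr11:101049459-101049476: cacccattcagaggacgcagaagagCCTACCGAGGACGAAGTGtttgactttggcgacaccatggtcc

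Hnrnpk encodes an RNA-binding protein that itself acts in splicing. In its chains the annotated 16-base microexon was absent, and the exon before it ran on for 16 bases into the intron. Of these 16 bases, 8 were identical to the microexon position by position. In Gbe1, the branching enzyme of glycogen synthesis, an intron moved by 4 bases without any change of the spliced sequence, which was identical over all 2982 bases compared.
Hnrnpk, annotated, 16 bases at chr13:58393853-58393868: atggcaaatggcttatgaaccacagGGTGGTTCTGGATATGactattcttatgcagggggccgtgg
Hnrnpk, chain, 16 bases at chr13:58394060-58394075: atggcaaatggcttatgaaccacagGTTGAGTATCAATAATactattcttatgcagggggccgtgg
Gbe1, annotated, 4 bases at chr16:70401850-70401853: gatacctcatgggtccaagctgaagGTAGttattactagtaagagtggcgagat
Gbe1, chain, 4 bases at chr16:70433545-70433548: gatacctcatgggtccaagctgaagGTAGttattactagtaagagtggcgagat

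Tandem acceptors appear as 3 extra bases at the start of an exon, in capitals. Ctbp1 encodes a transcriptional corepressor, H2afy a macro histone variant and Cars2 the mitochondrial cysteine tRNA ligase. The chain of Ctbp1 kept the 3 bases and its closest annotated transcript lacked them; the chains of H2afy and Cars2 lacked them.
Ctbp1, 3 bases at chr5:33248684-33248686: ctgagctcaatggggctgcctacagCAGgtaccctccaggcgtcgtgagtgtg
H2afy, 3 bases at chr13:56096232-56096234: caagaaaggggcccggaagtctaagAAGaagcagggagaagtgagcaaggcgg
Cars2, 3 bases at chr8:11530425-11530427: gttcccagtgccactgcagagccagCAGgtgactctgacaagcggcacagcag

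Oaz1 had the chain with most reads, 1370 in replicate 1 and 1859 in replicate 2. That was 96.6% of the multi-exon reads of the gene in replicate 1 (95% Clopper-Pearson interval 95.5 to 97.5%) and 94.9% in replicate 2 (93.8 to 95.8%), a share of 95.8% ± 1.22 (SD, n = 2). Annotated Oaz1 transcripts together held 1 read in replicate 1 and 0 in replicate 2. The chain of Oaz2 had 396 and 394 reads, a share of 87.0% ± 0.502, against 1 and 0 reads of annotated transcripts. Read from the annotated start codon, the chain of Oaz1 reached a stop after 68 codons and that of Oaz2 after 32, where the annotated transcripts with the base left out have 226 and 188 codons. In both genes this stop was the tga shown above, at chr10:80828295-80828297 in Oaz1 and chr9:65686272-65686274 in Oaz2. The annotated coding sequence passes it by the missing base, and the chains hold the base. A 1-base annotated gap was also joined in Nadk2, a mitochondrial NAD kinase, with 71 and 104 reads and a share of 55.8% ± 4.70.

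The chains that lack a microexon were nearly the only spliced form in several genes. Phb2 had 574 and 566 reads on its chain, a share of 95.4% ± 1.29, and 1 and 4 reads on annotated transcripts. Mpc1 had 252 and 456 reads, 95.7% ± 1.32, against 1 and 4 on annotated transcripts. Sept7 had 168 and 149 reads, 88.2% ± 3.66, against 0 and 1. In these genes both libraries gave the same order, with the unannotated chain far above the annotated transcripts. Leaving out 6 bases, the chain of Phb2 kept the annotated stop with 297 in place of 299 codons. The chains of Mpc1 and Sept7, which lack 4 and 5 bases, met another stop after 42 and 25 codons where the annotation has 109 and 437. The deposited models hold positions and not the bases of the reads, so whether the reads carry the short exon was not tested.

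Itih3 had 109 reads on its chain in replicate 1 and 355 in replicate 2, a share of 73.8% ± 5.74, and 0 reads on annotated transcripts in both. The level of the chain stood at 117 CPM and 272 CPM, higher in the library with the higher sum of liver markers; their part in it was not tested. In bulk tissue, fewer cells of a type and less RNA per cell cannot be told apart. Immt had 4 of the chains, which took 98 of 157 multi-exon reads in replicate 1 and 84 of 150 in replicate 2; the 2 that lack only the 15-base microexon had 36 and 35 reads and 26 and 22 reads. Idh3g had 62 and 85 reads on the chain without the 12-base microexon, a share of 11.3% ± 0.0102, while models with an unannotated splice site (class NNC) took 77.5% and 74.6% of its multi-exon reads. Across all 12 chains that lack a microexon of 27 bases or fewer, 8 were the most-read chain of their gene in both libraries.

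Hnrnpk held 6 of the chains, all with the replaced 16-base microexon. Together they took 610 of 796 multi-exon reads in replicate 1 (76.6%) and 445 of 653 in replicate 2 (68.1%), while annotated transcripts held 2 reads and 1 read. The chain with most reads had 343 and 238, a share of 39.8% ± 4.70, and the next had 171 and 144, a share of 21.8% ± 0.403. The reading frame of the most-read chain, read on reference bases, ended after 368 codons in place of 464. Whether the reads carry the annotated microexon was not tested, since the deposited models hold positions and not bases. The exon that runs on for 16 bases ends at a splice site that GENCODE M21 does not list as one. These chains therefore go against the label of known sites.

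In all, 53 of the 733 chains had at least 1 splice site that no M21 transcript uses, and 680 were made of annotated sites alone. Without the 53, 114 chains were the most-read chain of their gene in both libraries in place of 128, and the median share was 10.7% in place of 10.6%. Of the 733 chains, 576 (78.6%) were made only of annotated introns, 154 had 1 unannotated intron and 3 had 2 or more. Among the 30921 NIC chains of annotated genes outside the set, 53.1% were made only of annotated introns and 17.9% had a splice site that is not annotated, against 7.23% in the set. Among the 1235 of these with 5 or more reads in 1 library, nearer in depth, the values were 66.6% and 19.2%.

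**Figure D1:**
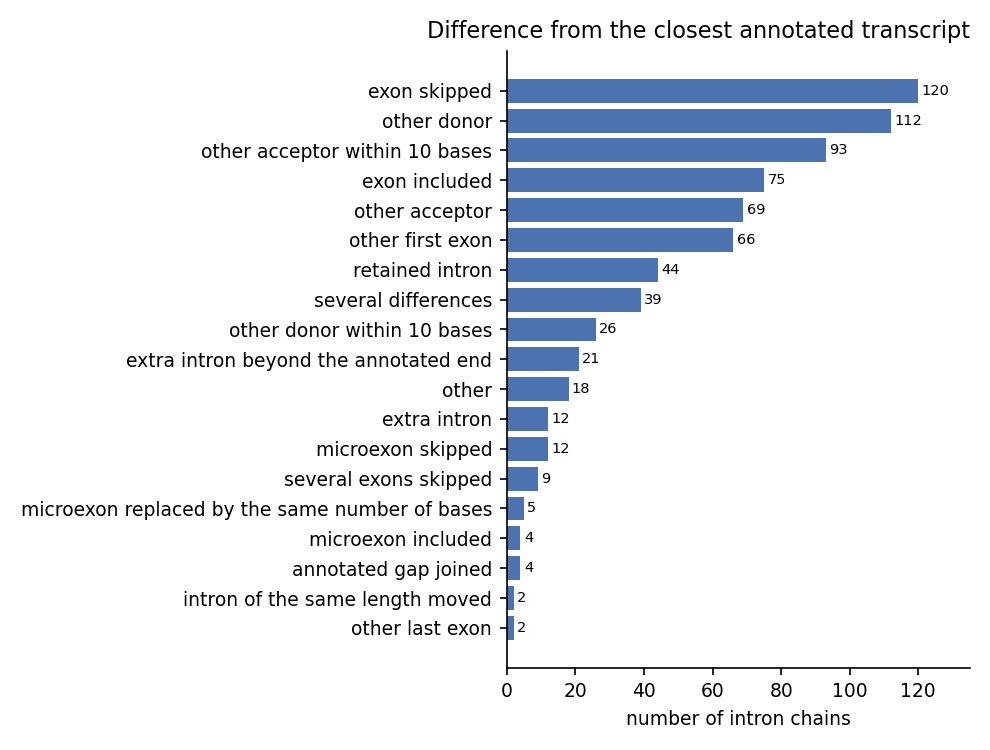
Number of the 733 intron chains (x axis) by how each differs from the closest annotated transcript of its gene (y axis). Skipped exons (120), other donors (112) and acceptors moved by at most 10 bases (93) are the 3 longest bars.

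Within the span of each chain, most structures were 1 change away from an annotated transcript, chosen as the one that differs at the fewest places. Annotated introns beyond the ends of a chain were not compared, and overlapping introns that differ count as 1 place. Against the closest annotated transcript, 694 chains differed at 1 place, 33 at 2 and 6 at 3 or more. A single exon was skipped in 120 chains and included in 75, and a microexon skipped in 12 and included in 4. Donor sites differed by over 10 bases in 112 chains and by 10 or fewer in 26; acceptors by over 10 bases in 69 and by 10 or fewer in 93. Another first exon was used in 66 chains and an intron kept in 44. Among the NIC chains outside the set, a retained intron was the difference in 12.9%, against 44 of 733 in the set, and several differences at once in 25.9% against 5.32%. Among the 1235 with 5 or more reads in 1 library these were 8.58% and 8.18%. These are descriptions, since the reads chose the set.

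**Figure D2:**
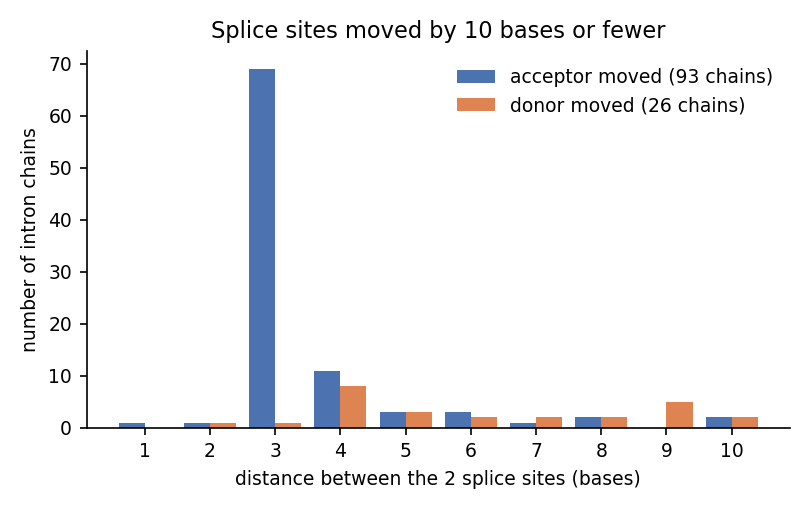
Number of chains (y axis) whose acceptor or donor lies 1 to 10 bases (x axis) from that of the closest annotated transcript. Acceptors peak at 3 bases (69 of 93 chains); donors are spread, with 8 of 26 at 4 bases.

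Of the 93 chains with a slightly moved acceptor, 69 had moved it by exactly 3 bases and 11 by 4. The extra 3 bases were CAG in 47 chains, AAG in 12, TAG in 5 and GAG in 2; in the other 3 chains the bases are not in the M21 transcripts. Introns nearly always end in AG, and when the downstream acceptor is used the triplet is the end of the intron. The 3 bases before both acceptors are known for 19 of the 69 chains, and in 18 of these AG stood before both. The unannotated chain kept the extra triplet in 31 chains and the annotated transcript in 38. Among the NIC chains outside the set a 3-base shift of the acceptor made up 2.19%, against 9.41% in the set and 6.72% of the 1235 with 5 or more reads in 1 library.

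Ctbp1 had 373 and 232 reads on its tandem acceptor chain, a share of 61.9% ± 0.909, and 88 and 46 reads on its most-read annotated transcript. That transcript also keeps the 3 bases and is not the closest one, so these reads do not compare the tandem acceptors. The 3 bases add 1 codon, 430 in place of 429. H2afy had 2 chains with the same shift, at 81 and 73 reads (30.9% ± 0.165) and at 76 and 68 reads (28.9% ± 0.302). Cars2 had 44 of 110 and 42 of 84 multi-exon reads on its chain, 45.0% ± 7.07. Gnb1, a G protein beta subunit, had 42 and 40 reads on a chain whose shift lies outside its coding sequence of 340 codons. The libraries were within 2 percentage points of each other in Ctbp1, H2afy and Gnb1 and lay further apart in Cars2, where the difference did not pass the test (adjusted p = 0.614, Fisher's exact test).

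Skipped exons and moved acceptors were sorted by whether their length is divisible by 3. Frames were read from annotated starts on reference bases, so a change divisible by 3 keeps the frame by arithmetic. The split below is therefore a description and not a test. Of the 58 chains that skip 1 exon of a length divisible by 3, 46 kept the annotated stop with another length, and none met another stop more than 50 bases upstream of the last exon junction. Of the 62 that skip an exon of another length, 28 met such a stop and 1 kept the annotated stop with another length. Of the 72 small acceptor shifts divisible by 3, 52 kept the annotated stop with another length and none met such a stop; of the other 21, 9 did. Other changes divisible by 3 did meet such a stop in some chains, in 5 of 38 with an included exon, 4 of 31 with an acceptor and 2 of 45 with a donor moved by over 10 bases, and 5 of 8 with a retained intron. A stop well upstream of the last junction is the textbook signal for nonsense-mediated decay, which removes such mRNAs.

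Over all 733 chains, 241 had the coding sequence exactly as annotated, 192 kept the annotated stop by another coding path, 153 met another stop upstream of the last junction and 66 another stop in or near the last exon. In 3 of the 192, those of Gbe1, Mul1 and Tmem87b, the number of codons was as annotated. A further 49 held no annotated start codon. The median share of the 241 with an unchanged coding sequence was 12.2% in replicate 1 and 11.4% in replicate 2. That of the 153 was 6.28% and 5.11%, though the 153 held more reads, 4943 and 5293 against 4536 and 4362. The 153 include the 4 chains that skip a microexon of a length not divisible by 3, with median shares of 91.1% and 81.3%. Of chains with another first exon, 39 of 66 had an unchanged coding sequence. Of chains with a retained intron, 28 of 44 met a stop upstream of the last junction, and the bases of 11 are not in the M21 transcripts.

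**Figure D3:**
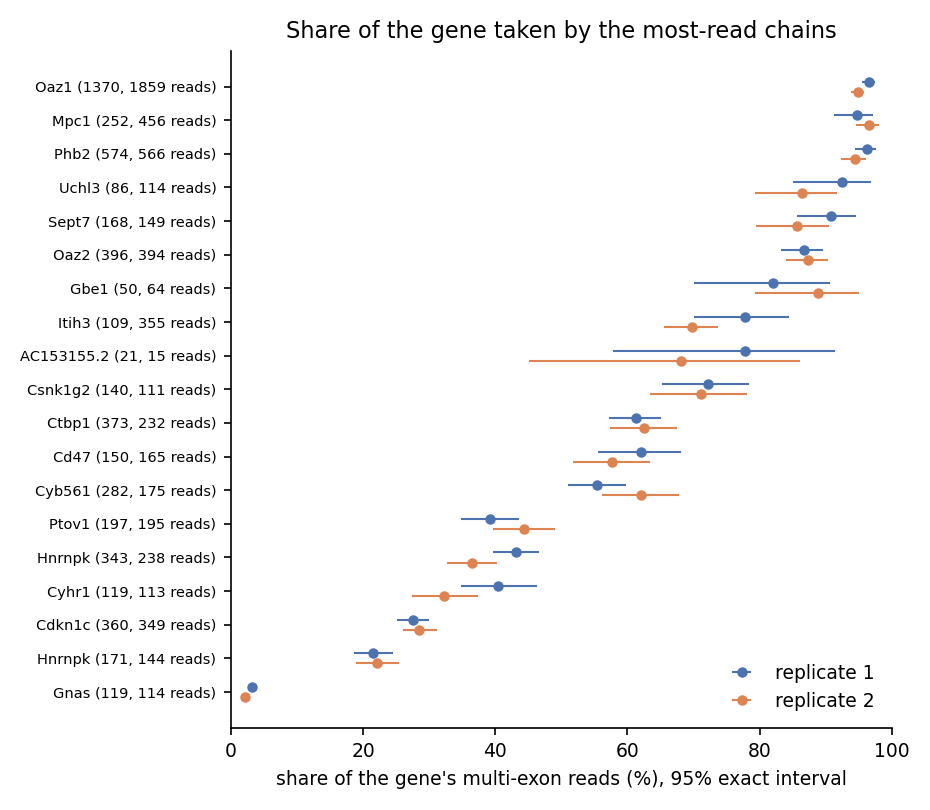
Share of the gene's multi-exon reads (x axis, percent) of the 19 chains with most reads or the highest share, in replicate 1 and replicate 2; bars are 95% exact intervals of counting error and the reads follow each name. Oaz1, Mpc1 and Phb2 lie above 94% in both libraries, and Gnas at 3.24% and 2.20%.

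In 128 of the 733 chains the unannotated form was the most-read multi-exon chain of its gene in both libraries. In 137 genes, 152 chains had more reads than every annotated transcript of their gene in both. Some of the 152 were minor chains of genes with almost no annotated reads, such as that of Oaz1 with 8 and 22 reads. In 69 of the 152 no annotated transcript had more than 3 reads in either library. The share was 50% or more in both libraries in 42 chains and under 1% in both in 43. The median was 10.8% in replicate 1 and 9.76% in replicate 2. Uchl3, a deubiquitinating enzyme, had 86 and 114 reads and a share of 89.4% ± 4.32. Gbe1 had 50 and 64 reads, 85.4% ± 4.89, and its annotated transcripts together had 0 reads and 1 read. The annotated transcript with the identical spliced sequence had none. The predicted gene AC153155.2 had 21 and 15 reads on a chain at 77.8% and 68.2%.

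Larger changes also gave leading chains. Csnk1g2, a casein kinase, had 140 and 111 reads (71.7% ± 0.715) on a chain with 1 more intron of 81 bases, and 23 and 14 reads on its most-read annotated transcript. Cd47, the cell-surface signal that protects cells from being engulfed, had 150 and 165 reads (59.8% ± 3.03) on a chain without a 45-base exon, against 40 and 52. Ptov1 had 197 and 195 reads (41.7% ± 3.64) on a chain with 1 more intron of 184 bases, against 182 and 133 on its most-read annotated transcript. Cyhr1 had 119 and 113 reads (36.3% ± 5.86) on a chain with another first exon. Its most-read annotated transcript had 88 reads in replicate 1 and 148 in replicate 2, so the order of these forms changed between the libraries. All annotated transcripts of Cyhr1 together held 156 and 223 reads.

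In genes of steroid synthesis and cholesterol handling no chain was the most-read form of its gene in both libraries. Of 36 such genes with 20 or more multi-exon reads in each library, 9 held a chain of the set, against 545 of 5671 genes with these reads overall (9.61%); reads per gene differ between these sets and were not matched. Their 19 chains had a median share of 0.605% and 0.390%. Cyp11a1, which starts steroid synthesis, had 88 and 51 reads on a chain with a retained 478-base intron, against 5152 and 3705 on its annotated transcript. Cyp21a1, the 21-hydroxylase, had 7 chains, the most of any gene, with 227 of 7432 multi-exon reads in replicate 1 and 74 of 4481 in replicate 2. A chain that keeps a 68-base intron had 61 and 16 reads. Its 2 exon-skipping chains, which drop 96 and 90 bases, had 45 and 22 reads and 36 and 14 reads and kept the annotated stop. Reads of Cyp21a1 and of its near-identical pseudogene Cyp21a2-ps may be split between them, so these counts are uncertain. Fdxr, which passes electrons to the steroid enzymes, had 34 and 38 reads (6.81% ± 0.253) on a chain with its acceptor moved by 54 bases. Srebf1, a regulator of lipid synthesis, had 26 and 40 reads (24.0% ± 2.03) on a chain with another first exon, against 44 and 42 on its most-read annotated transcript. Nr5a1, the main transcription factor of steroid cells, had 12 and 17 on a chain with an unannotated site.

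In genes of the medulla, 4 of 20 with enough reads held a chain, against 9.61% of all such genes, with reads per gene not matched. Cyb561, the cytochrome that carries electrons across the chromaffin granule membrane, had 282 and 175 reads on a chain with another first exon and an unchanged coding sequence of 250 codons. That was 58.7% ± 4.71 of its multi-exon reads, against 63 and 38 reads on its most-read annotated transcript. Chga, the main granule protein, had 2 chains of 6 and 6 and of 10 and 5 reads, against 3208 and 2170 on its annotated transcript. Gnas, an imprinted gene for a G protein alpha subunit, had 4 chains, the leading one with 119 of 3677 and 114 of 5190 multi-exon reads, 3.24% and 2.20% (adjusted p = 0.0392, Fisher's exact test; 0.0944 over Known, NIC and NNC reads). Cdkn1c, an imprinted inhibitor of cell division, had 5 chains that took 34.6% and 35.8% of its multi-exon reads. The leading one, with a donor moved by 36 bases, had 360 and 349 reads (28.0% ± 0.684). The most-read annotated transcript of the gene had 397 and 348.

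Genes of mitochondrial energy use held a chain in 11 of 46 cases, and those of splicing in 12 of 39. Over all genes with enough reads this was 9.61%, and reads per gene were not matched. Ndufs1, a core subunit of respiratory complex I, had 2 chains that include a 104-base exon and leave the 727 codons unchanged, with 84 and 110 reads (18.2% ± 2.47) and 46 and 63 reads (10.2% ± 1.71). Idh3b had 40 and 55 reads on a chain with an extra 118-base intron. Hnrnpa2b1, an RNA-binding protein, had 58 reads in each library on a chain with a 120-base exon. Srsf5, a splicing activator, had 35 reads in each on a chain with a donor moved by 4 bases, whose frame ended after 124 of 269 codons. Mbnl2, a regulator of splicing, had 30 of 76 and 40 of 65 reads on a chain without a 95-base exon, a difference that did not pass the test (adjusted p = 0.104, Fisher's exact test).

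Of genes with enough reads, a chain was found in 5 of 33 for protein folding and turnover and 5 of 31 for translation and the ribosome. It was found in 3 of 26 for the cytoskeleton and endocytosis, 3 of 16 for signalling and 2 of 7 for imprinted and noncoding genes. All of these lists lay above the 9.61% of all such genes, and reads per gene were not matched, so the counts are no result about these groups. Hspd1, the mitochondrial chaperonin, had 83 and 66 reads on a chain with a donor moved by 210 bases. In translation Rpl3 had 10 and 11 reads on a chain of 0.813% and 0.819%, and in the cytoskeleton list Aplp2 had 34 and 27 on a chain with a 36-base exon. A chain used sites of 2 genes in 9 cases, with Hgs at 53 and 19 reads, Gnpat joined to Gm16163 at 13 and 28 and Diablo joined to Gm49027 at 21 and 8.

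**Figure D4:**
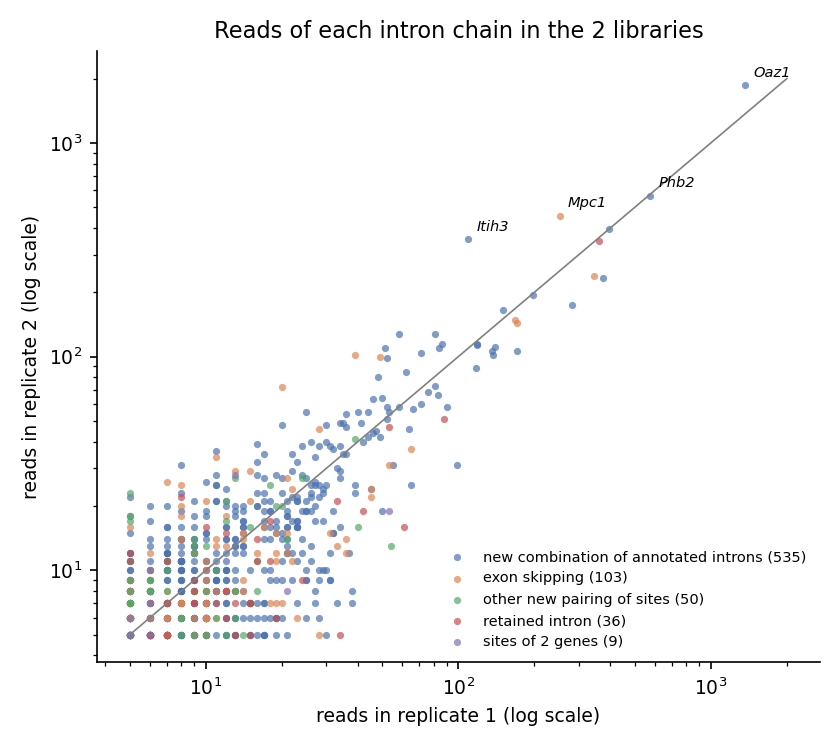
Reads of each of the 733 chains in replicate 1 (x axis, log scale) and replicate 2 (y axis, log scale), coloured by structure, with the line of equal reads. Oaz1 stands highest at 1370 and 1859 reads, and Itih3 lies above the line at 109 and 355.

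The share of a chain was mostly close in the 2 libraries. The median absolute difference was 2.16 percentage points; 530 chains differed by under 5 points and 26 by 20 points or more. Each chain's reads were set against the remaining multi-exon reads of its gene by Fisher's exact test (two-sided), adjusted by Benjamini-Hochberg over all 14569 chains tested. By this test 16 of the 733 differed, where 8.09% of all chains tested did (4.32% with a higher share in replicate 2 and 3.76% in replicate 1). The 2 percentages cannot be set against each other as a result, since the rule asks for 5 reads in each library and so keeps out chains that are low in one. Of the 16, 13 had the higher share in replicate 1 and 3 in replicate 2. At an unadjusted p under 0.05 there were 64, or 8.73% of the chains, against 17.3% of all chains tested. The test compares the reads of 2 libraries and counts each read as an independent molecule, so its p-values are too small where reads are copies. Models that match only part of an annotated transcript are of class ISM. Over Known, NIC and NNC reads alone, which leaves them out, 6 of the 16 still passed. Of these, Rbbp4, Traf7 and Atp2a1 had the higher share in replicate 1 and Acsl5, Aldoa and Ech1 in replicate 2. The split of 13 and 3 was therefore not kept with this denominator. ISM chains with 5 or more reads numbered 2065 in replicate 1 and 4032 in replicate 2. The cause of the split was not tested.

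Rbbp4, a histone-binding protein, had 15 of 25 multi-exon reads on its chain in replicate 1 and 5 of 67 in replicate 2, a share of 60.0% and 7.46% (adjusted p = 1.97e-05, Fisher's exact test). Cir1, a corepressor, had 21 of 23 and 12 of 27 reads on a chain without an 11-base microexon (adjusted p = 0.0133, Fisher's exact test). The other 15 reads of replicate 2 were of other classes; over Known, NIC and NNC reads the share was 91.3% (21 of 23) and 100% (12 of 12), so the direction turned and the call was lost. Acsl5, an enzyme that activates fatty acids, had 48 of 177 and 80 of 178 on a chain with another first exon, 27.1% and 44.9% (adjusted p = 0.0110, Fisher's exact test). Aldoa, a glycolytic enzyme, had 58 of 3419 and 127 of 3396 on a chain with another first exon (adjusted p = 1.05e-05, Fisher's exact test). Shares were also lower in replicate 2 for Nlrx1 (70.7% and 34.5%), Fam204a (57.9% and 26.5%) and Flywch1 (36.8% and 12.7%). Over Known, NIC and NNC reads none of these 3 passed, and that of Nlrx1 was 87.9% and 83.3% (29 of 33 and 10 of 12). The chain that joins Ech1 and Lgals4 had 5 reads in each library and was called only because the tables give it to Ech1 in replicate 1 and to Lgals4 in replicate 2.

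The level of the chains was lower in replicate 2. The median log2 ratio of CPM, replicate 2 over replicate 1, was −0.56, with 589 of 733 chains below 0; for annotated chains with 5 or more reads in each library it was −0.47. With scaling factors from edgeR (TMM) the median was −0.32. The sum of cortex markers was also lower in replicate 2 and that of liver markers higher. The part of the markers' tissues in this shift was not tested. Among cortex markers Mc2r was higher in replicate 2, at 36.6 and 64.4 CPM. Cyp11a1 stood at 7423 and 7442 CPM, but marker levels count all reads of a gene, here 6888 and 9700. Its multi-exon reads were 6021 and 4473, so spliced Cyp11a1 was lower in replicate 2.

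**Figure D5:**
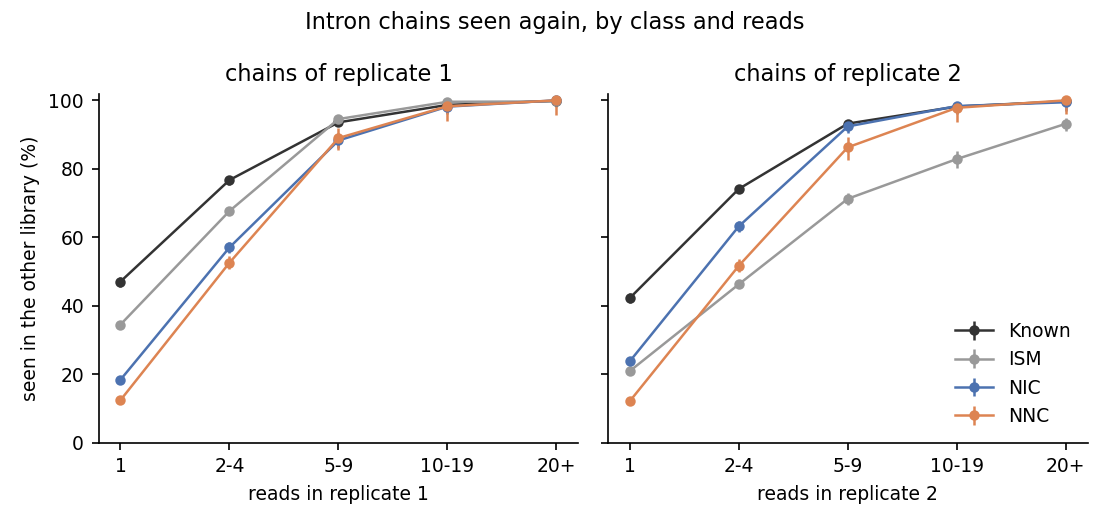
Percent of intron chains of 1 library (left replicate 1, right replicate 2) that had a read in the other, by the reads in the first library (x axis) and class; bars are 95% exact intervals. NIC chains rise from 18.4% and 23.8% at 1 read to 98.2% and 98.3% at 10 to 19 reads.

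The more reads a NIC chain had in 1 library, the more often it was seen in the other. Of NIC models of annotated genes, 14620 of 20138 in replicate 1 and 12430 of 17264 in replicate 2 had a single read, and of these 18.4% and 23.8% had a read in the other library. At 5 to 9 reads the percent seen again was 88.3% and 92.4%, and at 10 to 19 reads 98.2% and 98.3%. Annotated chains of 1 read were seen again in 47.1% and 42.3% of cases and NNC chains in 12.5% and 12.2%. Of the NIC models with 5 or more reads, 1420 in replicate 1 and 1281 in replicate 2, the 733 chains are 51.6% and 57.2%. At the edge of the rule, 171 chains had exactly 5 reads in the smaller library, with a median of 7 in the larger, and 271 chains outside had exactly 4, with a median of 6. The 733 chains held 16933 reads in replicate 1 and 16717 in replicate 2, or 35.5% and 39.2% of all NIC reads. In 611 of them both ends of the model also lay within 200 bases between the libraries.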

How the data were processed

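Long-read RNA sequencing of 2 libraries of 1 group was used. The authors deposited, for each library, a table of raw read counts per transcript model, not normalized. The same deposited tables and the models' annotations hold lengths in bases and 1-based positions on mm10 (unit other). Per the file headers and attributes, models were called by TALON against GENCODE M21; the aligner, and any version, is not given in the sources used here. The members and lists were chosen with earlier results of these data known.

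Models of the libraries were the same chain when chromosome, strand and every intron were equal. A share is a chain's reads over all multi-exon reads of its gene in 1 library. Fisher's exact test (two-sided; Benjamini-Hochberg, 0.05) was run on chains whose reads summed to 10 or more; 1 group allows no comparison of conditions. CPM is reads per 1000000 reads on annotated genes. Introns and splice sites were compared with M21. Each chain was compared, within its own span, with the M21 transcript of its gene that differs at the fewest places. This rule and its categories were chosen after the data were seen. Microexons are exons of 27 bases or fewer and an annotated gap is an intron of 10 bases or fewer. Reading frames started at an annotated start codon. Intervals (Clopper-Pearson, 95%) hold counting error alone, as amplified reads are not independent molecules. A count of 0 allows up to 3 reads. On simulated reads for the 14569 chains, the test called 81.5% of 200 chains with a 3-fold change of share and 0.0348% of unchanged chains. The 200 were drawn only from chains with many expected reads in both libraries and a limited share of their gene. The median member had 11 reads in replicate 1 and 10 in replicate 2, so the 81.5% does not hold for most of the set. Simulated reads were independent, so neither value covers copied reads.

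Chains were named by most reads in the smaller library (15), highest share (10), fixed gene lists (up to 8 each), largest called differences (5 each way), structure (3 each) and the 3 genes with most chains. Genes shown for tandem acceptors or short exons beyond these (H2afy, Cars2, Immt, Atp6v0a1, Nadk2) were chosen after their values were seen. Python 3.11.15, pandas 2.3.3, numpy 2.4.6, scipy 1.17.1, matplotlib 3.10.9, R 4.3.3, edgeR 4.0.16 and DESeq2 1.42.0 were used, the last 2 for scaling factors only.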

Additional observations from a re-analysis of the deposited data

Results flagged for a closer look

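Outside annotated genes, and so outside the rule, 2 NIC chains had 5 or more reads in each library. One, on chromosome 18 with 2 introns, had 30 reads in replicate 1 and 187 in replicate 2, and the other, on chromosome 4 with 1 intron, had 8 and 11. They stand here because no comparison above uses them and their reads are above the 3 that a count of 0 allows. With 2 libraries in the group, no search for a sample far from the others was possible.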

How the results depend on the processing

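The number of chains was 1422 at a minimum of 3 reads and 282 at 10, and 1281 to 1420 in a single library. The count with a different share, 16, became 34 with all reads of the gene as denominator, 7 with Known, NIC and NNC reads alone (6 of them among the 16), 4 with no minimum, 10 with a difference of at least 10 points asked for, and 9 at a minimum of 10 reads. The median share of 10.6% became 12.05% with Known, NIC and NNC reads as denominator, 7.63% at a minimum of 3 reads, 16.4% at 10 and 8.22 to 8.82% in a single library. The number of leading chains, 128, was 81 at a minimum of 10 reads and 240 to 252 in a single library. The percent made only of annotated introns ranged from 70.3 to 75.7% in a single library and was 84.7% without chains that have an unannotated site, an alternative added after the data were seen. The median log2 level ratio of −0.56 was −0.32 with TMM factors, −0.29 with DESeq2 size factors, −0.44 per multi-exon read, −0.49 at a minimum of 3 reads, −0.55 at 10 and −0.57 without chains that have an unannotated site. The percent of chains of 5 or more reads seen in the other library, 93.5% over both lists, was 82.8% from 3 reads and 98.8% from 10. A minimum set lower or higher changes which chains enter; for the other changes the cause was not tested. No paired analysis was possible because only 1 group was sequenced. Leaving out a library gives no value for the tests and ratios between the libraries. At 5 reads a share rests on few reads, and chains of genes with few reads could not reach the minimum at this depth.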
